A study of Mus musculus with 8 samples.

Results

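The 10 lysosomal cathepsins Ctsa, Ctsb, Ctsc, Ctsd, Ctse, Ctsf, Ctsh, Ctsl, Ctss and Ctsz were taken by gene symbol from the 20207 genes measured in each of 8 RNA-sequencing libraries of sorted mouse bone marrow cells. All 10 were found in each library, and all 10 were among the 12561 genes that passed the minimum of 1 RPKM (read counts scaled by transcript length and by library depth) summed over the 8 libraries. The granule protease Ctsg was left out of the group. The study asked why dipeptides accumulate in the stem cells of chronic myeloid leukemia (CML). It names uptake from outside the cell as a major driver. From inhibitor treatments, it did not hold a defect of the proteasome or of autophagy to be the likely main cause. The study adds that protein breakdown may also yield dipeptides, and the cathepsins are among the enzymes that break proteins down.

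CML-affected mice carried Tal1-tTA, which drives a tetracycline transactivator in blood stem and progenitor cells, and TRE-BCR-ABL1, through which the transactivator switches on the BCR-ABL1 oncogene once doxycycline is withdrawn. The study's methods describe healthy littermates with Tal1-tTA alone as controls. The CML cells were LT-CML stem cells (2 libraries), ST-CML stem cells (1 library) and CML-KLS- progenitors (1 library), and the healthy cells were normal LT-HSCs (2 libraries), ST-HSCs (1 library) and normal KLS- progenitors (1 library). Long-term (LT) cells were sorted as CD150+CD48-CD135-KLS+, short-term (ST) cells as CD150-CD48-CD135-KLS+, and KLS- cells as cKit+Lineage-Sca-1-. The labels give C57BL/6 as the strain of every library, an age of 6 months for LT-HSC replicate 2 and of 2 months for the other normal cells, and no age for the CML cells, whereas the methods describe the BCR-ABL1 mice as FVB/N and give 1 age range for sorted CML and littermate mice, which does not reach the labelled 6 months. On these sources, which differ, strain, age and disease cannot be told apart here. The LT-HSC replicates came from mice of different ages, and nothing says whether the LT-CML replicates came from separate animals, so p-values measure only the spread between these libraries, and ST and KLS- populations had no replicates.

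The files give no read counts, but low RPKM values placed the libraries at an estimated 17.8 to 23.9 M reads. Transcripts of the sorting markers followed the gates for Ly6a (Sca-1), at 72.4 to 152 RPKM in stem libraries and 8.16 and 11.7 RPKM in KLS- libraries, and Slamf1 (CD150), at 10.7 RPKM or more in LT libraries and 2.87 RPKM or less in the others. Flt3, which encodes CD135, was at 61.6 RPKM in ST-HSCs and 71.6 RPKM in ST-CML stem cells although both were sorted as CD135-. Cd48, which encodes CD48, was at 10.45 and 5.17 RPKM in LT-HSCs and 16.8 and 29.5 RPKM in LT-CML stem cells. In ST-HSCs and ST-CML stem cells it reached 41.8 and 45.2 RPKM, although all of these were sorted as CD48-. The KLS- libraries had 174 and 129 RPKM of Cd48. Kit (cKit) was at 119 to 213 RPKM in stem libraries and 78.4 and 88.2 RPKM in KLS- libraries, all sorted as cKit+. LT-HSC replicate 2 and LT-CML replicate 2 stood apart from the other replicate of their population by transcripts of neutrophil granules, with a summed level of the 10 measured neutrophil markers of 3966 against 517 RPKM and 2327 against 234 RPKM. ST-CML stem cells carried such transcripts as well, with a sum of 1259 RPKM against 109 RPKM in ST-HSCs. Without Mpo these ST sums were 429 and 13.3 RPKM. Leaving out the LT replicates 2 thus does not remove every library with these transcripts. The stem cell differences of Ctse and Ctsh and the ST difference of Ctss are also given with LT-HSC replicate 2 and LT-CML replicate 2 left out. So is the count of members called in KLS- progenitors.

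Cathepsins are proteases that are made as inactive precursors. Most are sorted to the lysosome by the mannose 6-phosphate receptors and are activated in its acid interior, whereas Ctse is a protease of endosomes. Most use a cysteine for catalysis (Ctsb, Ctsc, Ctsf, Ctsh, Ctsl, Ctss and Ctsz), Ctsd and Ctse use a pair of aspartates, and Ctsa is a serine carboxypeptidase that also protects other lysosomal enzymes. Ctsd, Ctsb and Ctsl carry out bulk degradation of proteins, Ctss and Ctse are known from antigen processing, Ctsh is an aminopeptidase, Ctsz a carboxypeptidase, and Ctsc removes dipeptides from the ends of proteins and activates the serine proteases of granules. Ctsc thus releases the kind of metabolite that the study is about.

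The windows below are 27 bases of coding sequence from the GENCODE M1 transcripts of the mm9 genome, with the codon of the catalytic residue in capitals, and are shown for 7 members because this codon places each in its class. In Ctse the aspartate is codon 97 of 397 and in Ctsd it is codon 97 of 445.
Ctse: actgtcatctttGACaccggttcatcc
Ctsd: acagtcgtctttGATactggctcctct
Ctsh: gcctgtggcagcTGCtggactttctct
Ctsc: tcttgtggaagcTGCtactcatttgcc
Ctss: tcttgtggtgccTGCtgggctttcagt
Ctsz: tactgtggttccTGCtgggcccacggc
Ctsa: ctgacaggagagAGCtatgctggcatc
The catalytic cysteine is codon 139 in Ctsh, codon 257 in Ctsc, codon 150 in Ctss and codon 94 in Ctsz, and the serine of Ctsa is codon 191. Over 396 aligned residues, Ctse and Ctsd share 46.2% of residues, and the 7 cysteine cathepsins share 28.6 to 51.8% in pairs, most between Ctsl and Ctss. How the authors counted reads with several matches is not given in the sources used here. Ctsz alone among the 10 encodes the integrin-binding motif RGD.

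The level of the members spanned a wide range. Ctsd had the highest mean over the 8 libraries, 144 RPKM (range 94.3 to 207 RPKM), and Ctsf the lowest, 5.04 RPKM (range 0.625 to 8.42 RPKM). Between them, in order, stood Ctsz (mean 81.1 RPKM), Ctse (73.0 RPKM), Ctsb (54.6 RPKM), Ctsc (35.9 RPKM), Ctsa (35.3 RPKM), Ctsl (19.2 RPKM), Ctss (14.1 RPKM) and Ctsh (8.68 RPKM). Ctsd was above Ctsz in 7 of 8 libraries and Ctsb above Ctsc in 8 of 8. Neighbours without a single order over all 8 libraries were Ctsz and Ctse (4 of 8 libraries), Ctse and Ctsb (4 of 8), Ctsc and Ctsa (5 of 8), Ctss and Ctsh (5 of 8) and Ctsh and Ctsf (5 of 8). Ctse was below Ctsz and Ctsb in each normal library and above both in each CML library. Ctsh was above Ctsf in each normal library and in CML-KLS- progenitors, and below it in each CML stem library. Over the 8 libraries Ctse varied most, 24.4-fold from its lowest to its highest value, followed by Ctsf with 13.5-fold and Ctsh with 10.5-fold, and Ctsb varied least with 2.02-fold. The lowest values corresponded to an estimated 22 reads for Ctsf, 82 reads for Ctsh and 141 reads for Ctss, with counting errors of 21.3%, 11.1% and 8.42% of the value, and to 364 or more reads for each of the other 7 members.

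**Figure D1:**
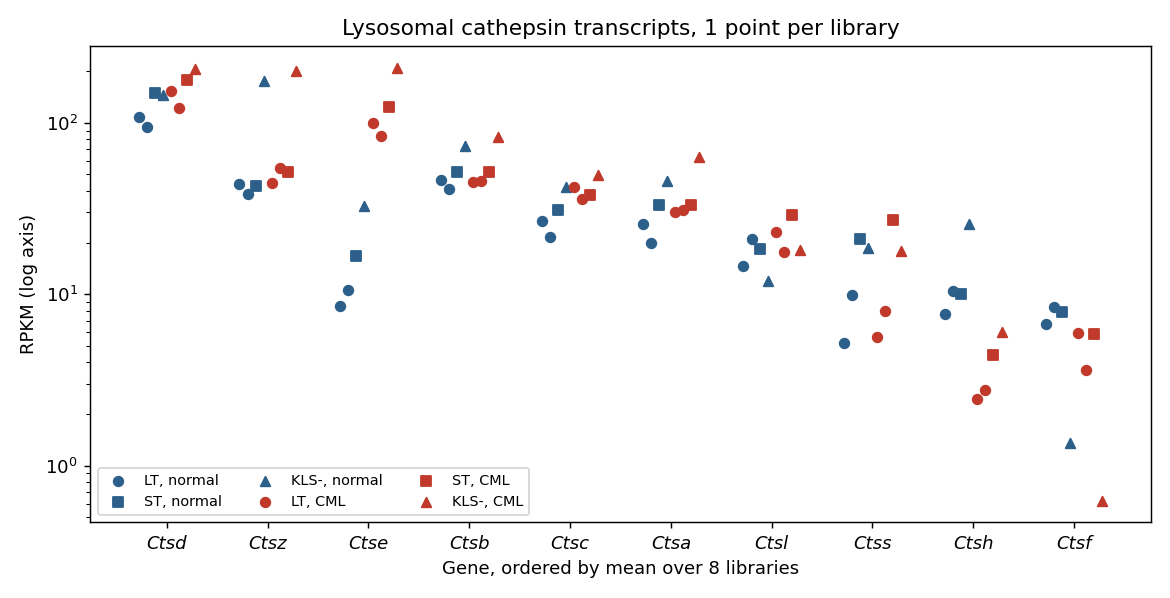
RPKM of the 10 lysosomal cathepsins on a log axis, with 1 point for each of the 8 libraries (blue for normal, red for CML; circles for LT, squares for ST, triangles for KLS- cells) and genes ordered by their mean. Ctse has all 4 CML points above all 4 normal points, Ctsh has all 4 CML points below, and Ctsz and Ctsf stand apart in the 2 KLS- libraries.

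The comparison of CML stem cells with normal HSCs (LT and ST, 3 libraries against 3) asks which members differ with the disease. Ctse rose and Ctsh fell, and the other 8 members did not pass the test. Among all 12561 genes, 1.18% were called higher and 1.16% lower in this comparison, and among the 10 members 1 was called in each direction. The 3 CML stem libraries were all above the 3 normal HSC libraries for 3 members (Ctsc, Ctse and Ctsz), against 6.92% of all genes, and all below for 2 (Ctsf and Ctsh), against 11.4% of all genes. The median difference over the members was 0.27 on the log2(RPKM + 1) scale, and over all genes it was -0.04.

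Ctse, an aspartic protease of endosomes, is encoded on chromosome 1 of mm9 (plus strand, 133534883 to 133572080). Its level was 8.58 and 10.6 RPKM in the LT-HSC replicates, 16.8 RPKM in ST-HSCs and 32.7 RPKM in normal KLS- progenitors. In CML-affected mice the 2 LT-CML replicates had 99.6 and 83.1 RPKM, with 123 RPKM in ST-CML stem cells and 210 RPKM in CML-KLS- progenitors. The lowest CML library was above the highest normal library, progenitors included. The mean of the 3 CML stem libraries was 102 ± 20.3 RPKM (SD, n = 3) and that of the 3 normal HSC libraries 12.0 ± 4.27 RPKM (SD, n = 3), a ratio of 8.53. The difference was 3.02 on the log2(RPKM + 1) scale (standard error 0.25, adjusted p = 0.00133 from limma). Within LT cells (2 libraries of each kind) the difference reached 3.13 (adjusted p = 0.000903 from limma, standard error 0.20). By population the ratio of CML to normal RPKM was 9.55 in LT, 7.36 in ST and 6.41 in KLS- cells. With LT-HSC replicate 2 and LT-CML replicate 2 left out, the difference of stem cells was 3.10 with an adjusted p of 0.0587 from limma, and the LT difference lost its call without LT-CML replicate 1 (2.998, adjusted p = 0.0696 from limma) or without LT-CML replicate 2 (3.26, adjusted p = 0.0648 from limma).

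Ctsh, the aminopeptidase, is encoded on chromosome 9 (plus strand, 89948990 to 89970927) and moved the other way. It was at 7.66 and 10.5 RPKM in the LT-HSC replicates, 10.1 RPKM in ST-HSCs and 25.6 RPKM in normal KLS- progenitors, against 2.44 and 2.78 RPKM for the LT-CML replicates, 4.40 RPKM in ST-CML stem cells and 6.05 RPKM in CML-KLS- progenitors. The highest CML value, that of progenitors, was under the lowest normal value, that of LT-HSC replicate 1. The means were 3.20 ± 1.05 RPKM in CML stem cells and 9.40 ± 1.52 RPKM in normal HSCs (SD, n = 3 each), and the latter was 2.93 times the former. The difference was -1.32 on the log2(RPKM + 1) scale (standard error 0.21, adjusted p = 0.0223 from limma) in stem cells and -1.47 (standard error 0.22, adjusted p = 0.0224 from limma) in LT cells. By population the normal level was 3.48 times that of CML in LT, 2.29 times in ST and 4.23 times in KLS- cells. The stem cell call was lost, with values of -1.19 to -1.45, when any of the 5 libraries other than ST-CML was left out (adjusted p = 0.0569 to 0.1004 from limma), and it was lost with LT-HSC replicate 2 and LT-CML replicate 2 both left out (-1.18, adjusted p = 0.220 from limma). The LT call was lost when any of its 4 libraries was left out. Under upper-quartile scaling the adjusted p was 0.0513 in stem cells and 0.0507 in LT cells from limma, with no change of direction.

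**Figure D2:**
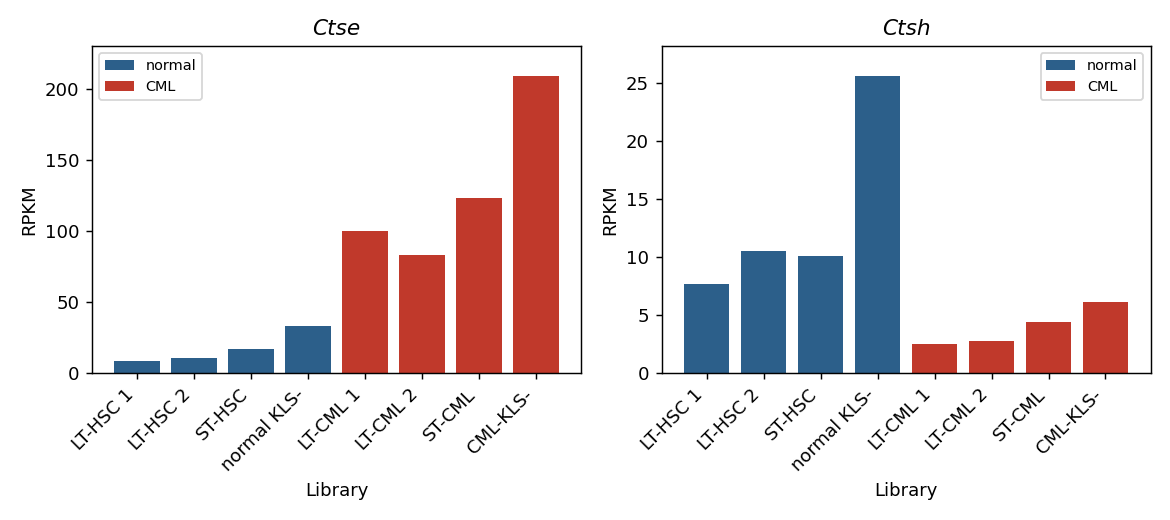
RPKM of Ctse (left) and Ctsh (right) in each library, blue for normal and red for CML, with 1 bar per library and axes from 0. For Ctse the CML bars span 83.1 to 210 RPKM against 8.58 to 32.7 RPKM in normal cells, and for Ctsh they span 2.44 to 6.05 RPKM against 7.66 to 25.6 RPKM.

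Among the other members, Ctsc, which removes dipeptides from protein ends, was at 42.3, 36.0 and 38.1 RPKM in the 3 CML stem libraries (LT-CML replicates 1 and 2, then ST-CML) and at 26.7, 21.5 and 30.8 RPKM in the corresponding normal libraries. The groups did not overlap, but the difference of 0.55 (standard error 0.16) had an adjusted p of 0.178 from limma, and the ratio of means was 1.47. It passed the threshold only under upper-quartile scaling (0.64, adjusted p = 0.0457 from limma). Ctsf, a cysteine cathepsin with a long propeptide, was at 5.94, 3.59 and 5.87 RPKM in CML stem cells and 6.68, 8.42 and 7.84 RPKM in normal HSCs (difference -0.52, standard error 0.20, adjusted p = 0.353 from limma).

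None of the enzymes of bulk degradation passed the test. Ctsd was at 154, 122 and 176 RPKM in CML stem cells and 108, 94.3 and 150 RPKM in normal HSCs (difference 0.37, standard error 0.21, adjusted p = 0.549 from limma). Ctsb was at 45.2, 45.9 and 51.6 RPKM and at 46.5, 40.8 and 51.5 RPKM, a difference of 0.04 (standard error 0.14), and the groups overlapped. Ctsl, at 23.1, 17.7 and 28.8 RPKM in CML stem cells and 14.7, 21.0 and 18.3 RPKM in normal HSCs, had a difference of 0.34 (standard error 0.21, adjusted p = 0.586 from limma). The differences of Ctsa (0.28), Ctsz (0.26) and Ctss (0.06) also did not pass the test, and that of Ctss had a standard error of 0.61, with ST libraries above LT libraries in CML and normal cells alike.

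**Figure D3:**
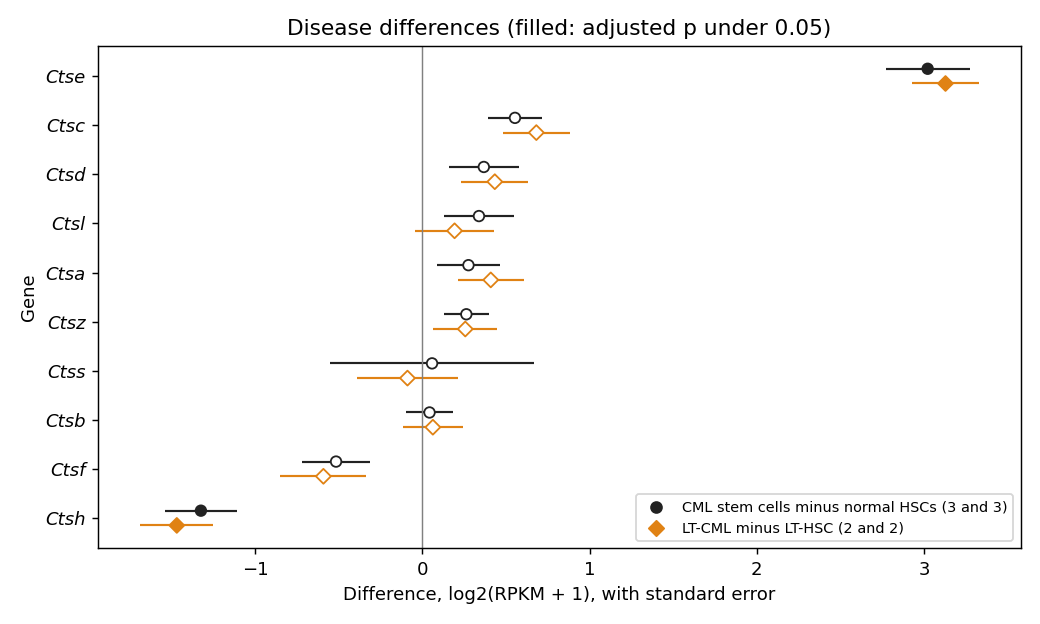
Differences between CML and normal cells on the log2(RPKM + 1) scale with standard errors, for the 6 stem libraries (black circles, 3 and 3) and the 4 LT libraries (orange diamonds, 2 and 2), with filled symbols for an adjusted p under 0.05. Ctse at 3.02 and 3.13 and Ctsh at -1.32 and -1.47 are filled, and the other 8 members lie between -0.59 and 0.68 with open symbols.

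In the LT comparison taken alone, 0.939% of all genes were called higher and 0.788% lower, and of the members again Ctse was called higher and Ctsh lower. The largest of the differences that did not pass were 0.68 for Ctsc (standard error 0.20, adjusted p = 0.198 from limma) and -0.59 for Ctsf (standard error 0.26, adjusted p = 0.440 from limma). The LT and stem cell comparisons share the 4 LT libraries and are not separate evidence.

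Whether the CML difference itself was of another size in progenitors was tested as the difference in KLS- cells minus the mean of the LT and ST differences. None of the 10 members passed limma's threshold, 0 had an unadjusted p under 0.05, and 0.0239% of all genes were called. The estimates were -0.32 (standard error 0.33) for Ctse and -0.66 (standard error 0.36) for Ctsh. With 1 KLS- library in each state and 2 residual degrees of freedom, these standard errors allow differences of either sign.

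The makeup of the cathepsin transcripts differed by Ctse. The 10 members summed to 294 and 275 RPKM in the LT-HSC replicates, 381 RPKM in ST-HSCs and 570 RPKM in normal KLS- progenitors, and to 452 and 404 RPKM for the LT-CML replicates, 541 RPKM in ST-CML stem cells and 854 RPKM in CML-KLS- progenitors. In each population the CML sum was the larger. Ctse made up 2.92 to 5.73% of this sum in normal libraries and 20.6 to 24.5% in CML libraries. It ranked 6 to 8 of 10 in normal libraries, 2 of 10 in CML stem cells and 1 of 10 in CML-KLS- progenitors. Without Ctse the CML sum was still the larger in each population, at 353 and 321 against 285 and 265 RPKM in LT, 417 against 365 RPKM in ST and 644 against 537 RPKM in KLS- cells, while over LT and ST cells together the CML and normal ranges overlapped. Within the aspartic class, Ctse was at 0.0795 to 0.226 times the level of Ctsd in normal libraries and 0.648 to 1.01 times in CML libraries.

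**Figure D4:**
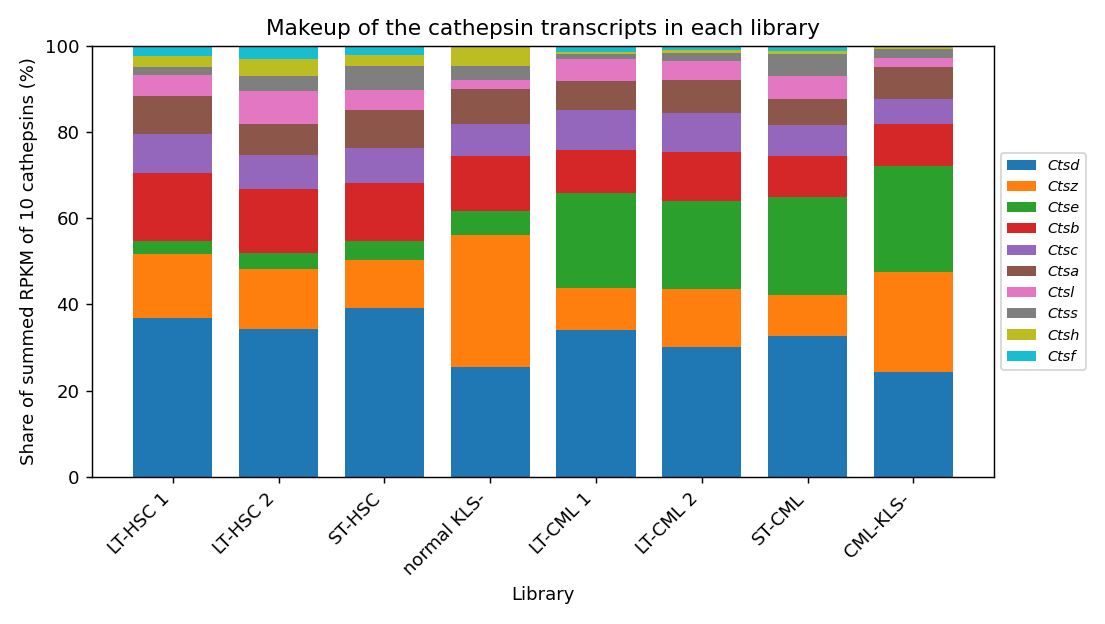
Share of each member in the summed RPKM of the 10 cathepsins, as stacked bars that add to 100% in each library. Ctse takes 20.6 to 24.5% in the 4 CML libraries and 2.92 to 5.73% in the 4 normal libraries, and Ctsz takes 23.4% and 30.6% in the CML-KLS- and normal KLS- libraries against 15% or less in stem cell libraries.

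Markers of other cells that a sorted library could hold were read beside these results. The summed level of the 10 measured neutrophil markers was 109 to 3966 RPKM in normal HSC and 234 to 2327 RPKM in CML stem libraries, and that of the 17 measured monocyte and macrophage markers 210 to 428 RPKM and 195 to 334 RPKM, so both overlapped between the groups. None of the 10 neutrophil markers tested was called, and of the 12 monocyte and macrophage markers tested Cd14 was called higher (difference 2.35, adjusted p = 0.0330 from limma). The transcripts of tissue macrophages C1qa, C1qb, C1qc, Mrc1, Siglec1 and Ms4a7 were at 0.473 RPKM or less in all 8 libraries, whereas Lyz2, of the same list, was at 113 to 315 RPKM in all 8, and Emr1 (F4/80) was at 0.632 RPKM or less in stem and 2.22 and 1.73 RPKM in KLS- libraries. Of 7 dendritic cell markers tested Bst2 was called lower, and the sum was 83.9 to 214 RPKM in normal HSCs and 74.7 to 204 RPKM in CML stem cells. Of the 6 B and T cell markers and 8 basophil and mast cell markers tested, 0 were called, with sums of 37.2 to 42.3 and 31.3 to 62.6 RPKM, and of 5.78 to 15.6 and 6.14 to 59.9 RPKM. Among the stem libraries, ST-CML held the highest of both sums, 62.6 and 59.9 RPKM. The sum of 12 erythroid markers was 1310 to 1555 RPKM in normal HSCs and 513 to 1117 RPKM in CML stem cells, and most of it was Car2, a carbonic anhydrase (1494, 1405 and 1270 RPKM against 756, 494 and 1011 RPKM, difference -0.94, adjusted p = 0.129 from limma). Without Car2 the sums of 40.2 to 150 and 12.2 to 106 RPKM overlapped, and 1 of 10 erythroid markers tested, Hbb-b2, was called lower. In the LT comparison 3 of these 10 were called lower (Hbb-b2, -3.95, Car1, -2.53, and Ermap, -1.10), as were Cd79a (-1.51) of the 6 B and T cell markers and Bst2 (-1.74) of the 7 dendritic cell markers. Flt3, which is a dendritic cell marker and encodes the CD135 of the gate, was called higher there (1.95, adjusted p = 0.0184 from limma), at 11.9 and 19.2 RPKM in LT-CML stem cells and 3.95 and 2.52 RPKM in LT-HSCs. None of these LT marker calls held without LT-CML replicate 1 or without LT-CML replicate 2. Those of Hbb-b2, Ermap and Cd79a were also lost with quantile normalization and with upper-quartile scaling. None of the 10 neutrophil, 12 monocyte and macrophage and 8 basophil and mast cell markers was called by limma in LT cells. The median LT difference over the 10 neutrophil markers was -1.37. The part of these markers in the differences of Ctse and Ctsh was not tested. In bulk samples such as these, fewer cells of a type and less RNA per cell cannot be told apart.

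The comparison of KLS- progenitors with stem cells (2 libraries against 6, with disease as a covariate) set the members against commitment to the myeloid and erythroid lines. Of the 10 members, 6 rose in KLS- cells (Ctsz, Ctse, Ctsh, Ctsa, Ctsb and Ctsc) and 1 fell (Ctsf), among 22.2% of all genes called higher and 26.5% called lower. The median difference was 0.58 over the members and -0.08 over all genes. With LT-HSC replicate 2 and LT-CML replicate 2 left out, 7 members were called higher and 2 lower. Of all 12561 genes, 2884 were then called higher and 3610 lower. Scaling shifts this comparison: of all calls, 45.6% were higher as deposited (2791 higher, 3332 lower), 31.8% with upper-quartile scaling (2028 and 4343) and 52% with quantile normalization (2738 and 2527), and the median over all genes moved to -0.21 and 0.02. Under these scalings the 6 calls other than Ctsc remained, whereas Ctsc was not called (0.26 and 0.19), and Ctsl was called lower with upper-quartile scaling (-0.69, adjusted p = 0.0194 from limma).

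Ctsz, the carboxypeptidase, is encoded on chromosome 2 (minus strand, 174252994 to 174264540) and showed the largest rise. It was at 43.9 and 38.2 RPKM in the LT-HSC replicates, 42.5 RPKM in ST-HSCs, 44.6 and 54.1 RPKM for the LT-CML replicates and 51.7 RPKM in ST-CML stem cells, and at 175 and 199 RPKM in normal and CML KLS- progenitors. The 6 stem libraries averaged 45.8 ± 5.96 RPKM (SD, n = 6), and the ratio of KLS- to stem cells was 4.20 in normal and 3.98 in CML cells. The difference was 2.00 (standard error 0.12, adjusted p = 1.71e-05 from limma), and the call held in normal libraries alone (2.05) and in CML libraries alone (1.98).

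Ctsf, encoded on chromosome 19 (plus strand, 4855129 to 4860912), was the member called lower. It was between 3.59 and 8.42 RPKM in the 6 stem libraries, and fell to 1.35 RPKM in normal and 0.625 RPKM in CML KLS- progenitors, an estimated 54 and 22 reads. The difference was -1.91 (standard error 0.18, adjusted p = 0.000104 from limma), and the stem level was 5.66 times that of progenitors in normal cells and 8.21 times in CML cells.

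Ctse and Ctsh, which moved in opposite directions with the disease, both rose in progenitors of each state. The ratio of KLS- to stem cells was 2.73 in normal and 2.05 in CML cells for Ctse (difference 1.14, standard error 0.15, adjusted p = 0.000533 from limma), and 2.73 in normal and 1.89 in CML cells for Ctsh (difference 1.01, standard error 0.19, adjusted p = 0.00267 from limma). Without normal KLS- cells, Ctsh lost its call (0.71, adjusted p = 0.0623 from limma). Neither was called within normal or CML libraries alone, where Ctse had adjusted p = 0.102 and 0.0612 and Ctsh 0.0572 and 0.147 from limma.

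Smaller rises were those of Ctsa, at 45.7 and 63.4 RPKM in KLS- and 28.8 ± 5.15 RPKM (SD, n = 6) in stem cells (difference 0.84, standard error 0.15, adjusted p = 0.00185 from limma), and of Ctsb, at 72.9 and 82.5 RPKM against 46.9 ± 4.13 RPKM (difference 0.68, standard error 0.11, adjusted p = 0.00152 from limma). For both genes each KLS- library was above every stem library. Ctsc was at 42.2 and 49.7 RPKM in KLS- cells, within reach of the 42.3 RPKM of LT-CML replicate 1 (difference 0.49, standard error 0.15, adjusted p = 0.0282 from limma), and lost its call when normal KLS-, ST-CML or CML-KLS- cells were left out. Ctsd (0.32, adjusted p = 0.0732 from limma), Ctsl (-0.47, adjusted p = 0.0576 from limma) and Ctss (0.44, adjusted p = 0.135 from limma) did not pass. With LT-HSC replicate 2 and LT-CML replicate 2 left out, the adjusted p from limma was 0.0121 for Ctsl (-0.46) and 0.00803 for Ctss (0.60), and the sign of Ctsd turned under quantile normalization (-0.23).

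**Figure D5:**
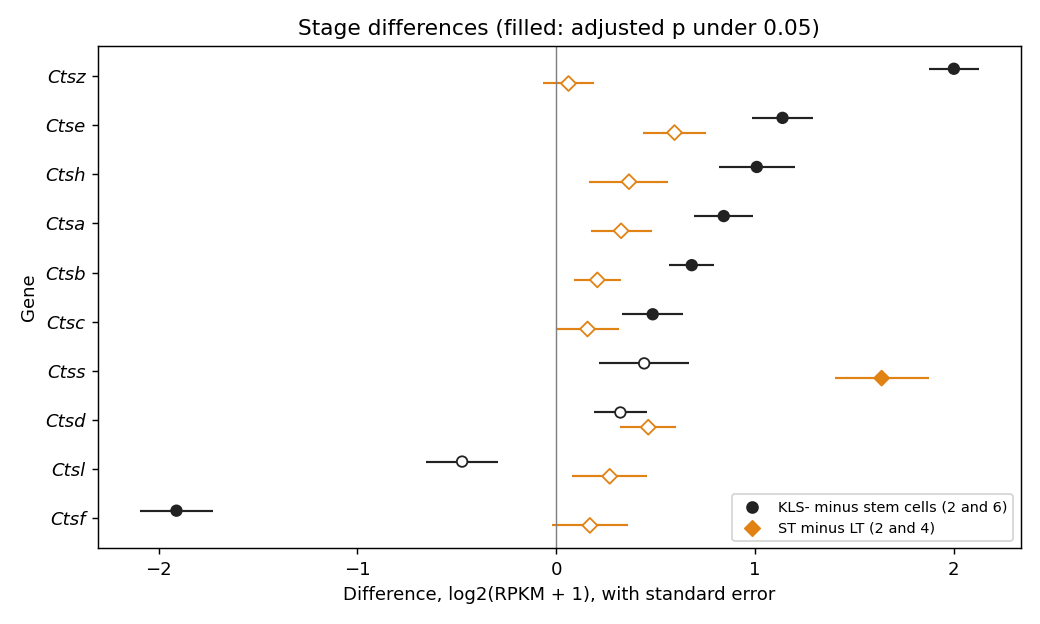
Differences between stages on the log2(RPKM + 1) scale with standard errors, for KLS- progenitors minus stem cells (black circles, 2 and 6 libraries) and ST minus LT cells (orange diamonds, 2 and 4), with filled symbols for an adjusted p under 0.05. Ctsz (2.00) and Ctsf (-1.91) lie at the ends of the KLS- comparison, and Ctss (1.64) is the filled symbol of the ST comparison.

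Marker lists of maturing cells were also read in the KLS- libraries. The summed level of the 17 monocyte and macrophage markers was 1011 and 1334 RPKM in KLS- and 195 to 428 RPKM in stem libraries, with 6 of 12 tested called higher and 0 lower, among them Csf1r (18.2 and 16.9 RPKM against 1.21 RPKM or less). The neutrophil sum was 8026 and 13839 RPKM against 109 to 3966 RPKM (2 of 10 called higher, Mpo and Cebpe, 0 lower), and most of it was Mpo, at 7891 and 13120 RPKM. The other 9 summed to 135 and 719 RPKM in KLS- and 13.3 to 3897 RPKM in stem libraries, with the granule genes Ltf (1.12 and 1.68 RPKM) and Ngp (7.06 and 20.9 RPKM) within the range of the stem libraries, and the median difference over the 10 was -0.11. The erythroid sum was 1671 and 2936 RPKM against 513 to 1555 RPKM (6 of 10 called higher), and the basophil and mast cell sum 126 and 121 RPKM against 5.78 to 59.9 RPKM (5 of 8 called higher). Of 7 dendritic cell markers 1 was called higher and 2 lower, and of 6 B and T cell markers 0 were called. The part of these cells in the cathepsin differences was not tested.

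Within the stem cell gate, ST cells were compared with LT cells (2 libraries against 4, with disease as a covariate). Ctss rose, and the other 9 members did not pass, among 2.13% of all genes called higher and 2.74% called lower. All 10 differences were above 0, with a median of 0.30 against -0.01 over all genes. Ctss, a cysteine protease that cuts the invariant chain in antigen-presenting cells, is encoded on chromosome 3 (plus strand, 95330708 to 95360325). It was at 5.22 and 9.89 RPKM in LT-HSCs, 5.63 and 8.03 RPKM in LT-CML stem cells, 21.0 RPKM in ST-HSCs and 27.1 RPKM in ST-CML stem cells, and at 18.5 and 17.7 RPKM in normal and CML KLS- progenitors. ST libraries were above all LT libraries in each state, with ratios of 2.78 in normal and 3.96 in CML cells. The difference was 1.64 (standard error 0.24, adjusted p = 0.00696 from limma). It lost its call without ST-CML stem cells (1.42, adjusted p = 0.110 from limma), and with LT-HSC replicate 2 and LT-CML replicate 2 left out it was 1.95 (adjusted p = 0.00212 from limma). The next differences were those of Ctse (0.60, adjusted p = 0.0746 from limma) and Ctsd (0.46, adjusted p = 0.106 from limma). Of the 12 monocyte and macrophage markers tested, 1 was called higher in ST cells, Itgam (1.72), and of the 7 dendritic cell markers 1, Flt3, which is also a marker of the gate (3.04). Of the B and T cell markers Vpreb1 was called higher (1.49), and of the erythroid markers Epor lower (-1.19).

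Other genes of the lysosome gave the background to the members. Of 36 lysosomal hydrolases outside the group, 1 was called higher and 3 lower in CML stem cells compared with normal HSCs. Among them were Acp5, an acid phosphatase (1.37, adjusted p = 0.0259 from limma), Rnaset2b, a ribonuclease (-1.82, adjusted p = 0.000848 from limma), and Prcp, a carboxypeptidase that cuts behind proline (-1.06, adjusted p = 0.0258 from limma). Rnaset2b was at 2.62 to 3.21 RPKM in all 4 normal libraries and 0.282 RPKM or less in all 4 CML libraries. Of 20 lysosomal membrane proteins and cofactors, 1 was called, Lgmn, the asparaginyl protease that processes cathepsin precursors, at 3.04, 3.11 and 5.18 RPKM in CML stem and 0.615, 0.961 and 1.51 RPKM in normal HSC libraries (difference 1.23, adjusted p = 0.0399 from limma). The median difference was 0.04 over the hydrolases and 0.07 over the membrane proteins and cofactors. The calls of Acp5, Prcp and Lgmn were each lost without LT-HSC replicate 1, without LT-HSC replicate 2 or without LT-CML replicate 1. Acp5 also lost its call without ST-HSC, and Prcp without ST-CML. Lgmn also lost its call without LT-CML replicate 2, without ST-CML and with quantile normalization. That of Rnaset2b held with any 1 library left out, but was lost with LT-HSC replicate 2 and LT-CML replicate 2 both left out. In the LT comparison Rnaset2b (-1.75) and Prcp (-0.99) of the hydrolases and Lgmn (1.19) of the other list were called, and none of these 3 LT calls held without LT-HSC replicate 2, LT-CML replicate 1 or LT-CML replicate 2.

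Of the 12 genes of mannose 6-phosphate sorting, 0 were called in CML stem cells. The receptor M6pr was at 108, 112 and 88.0 RPKM in CML stem and 139, 101 and 127 RPKM in normal HSC libraries, which overlap. Of 9 tested cathepsin inhibitors 0 were called. Cst3 (cystatin C) was at 148, 132 and 175 RPKM in CML stem and 178, 181 and 193 RPKM in normal HSC libraries, and Serpina3g at 223, 208 and 151 RPKM and at 145, 113 and 93.0 RPKM. For these inhibitors, which had the highest means of the list, the groups did not overlap, but neither passed the test (adjusted p = 0.467 for Cst3 and 0.176 for Serpina3g from limma). Of the 6 granule proteases tested (Prtn3, Ctsg, Gzma, Gzmb, Cma1 and Mcpt8) 0 were called, and of 4 other cathepsins tested (Ctsg, Ctso, Ctsw and Cts8) 0 were called. Of the MiT/TFE factors, which switch on lysosomal genes, Mitf was analysed here and was not called.

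In KLS- progenitors compared with stem cells the lists divided. Of 36 hydrolases 13 were called higher and 5 lower, with the largest differences for the glycosidases Gla (1.68), Hexa (1.46) and Gusb (1.07), the sulfatases Arsb (1.39) and Galns (1.27) and the phospholipase Pla2g15 (1.22). Of 20 membrane proteins and cofactors 9 were called higher and 2 lower, with Cd68 (1.42) and Ifi30 (1.37) highest, and of the 12 sorting genes 5 higher and 1 lower. These counts depended on the scaling: with upper-quartile scaling they were 12 higher and 10 lower for the hydrolases, 3 and 3 for the membrane proteins and cofactors and 1 and 2 for the sorting genes, and with quantile normalization 12 and 4, 6 and 4, and 4 and 0. Of 9 inhibitors 2 were called higher (Cst7, 4.56, and Cst3, 0.64) and 3 lower (Cd74, -2.82, Serpina3g, -2.11, and Serpinb6a, -1.41). Cst3 was not called with quantile normalization or without normal KLS- cells. Cst7, cystatin F, which acts on Ctsc, was at 194 and 252 RPKM in KLS- cells and 3.05 to 41.5 RPKM in stem libraries. Granule proteases that Ctsc activates rose as well, 3 of 6 tested, led by Ctsg (5.84, at 606 and 702 RPKM in KLS- libraries). Of 4 other cathepsins tested, Ctsg was called higher, and Ctsw (-2.79) and Ctso (-1.61) lower, as Ctsf was. Mitf was called lower (-0.51), though not with quantile normalization. In ST compared with LT cells, 2 of 36 hydrolases (Sgsh, 0.86, and Lipa, 0.69) and 4 of 20 membrane proteins and cofactors (Gm2a, 1.26, Cd68, 0.96, Laptm5, 0.82, and Psap, 0.71) were called higher and Ifi30 lower (-1.10), and 0 of the 12 sorting genes, 9 inhibitors, 6 granule proteases and 4 other cathepsins were called.

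RefSeq promoters of the GRCm38.p6 build, from 250 bases before to 50 bases after the start, matched 7 of the 10 members with 8 promoters, 2 of them for Ctsa. Ctsb, Ctse and Ctsh had no entry. Both strands were searched. The E-box CACGTG, the core that MiT/TFE factors bind, was in 4 of the 8 member promoters and in 7.15% of all 32851 promoters, and TCACGTGA, an E-box with the flanks of the CLEAR element of lysosomal genes, which always holds an E-box, was in 2 of 8 and in 0.974% of all. GAAANNGAA, the repeat that interferon factors bind, was in 1 of 8 (Ctss) and in 8.56% of all, TTCNNNGAA, a STAT pattern, in 1 of 8 (Ctsc) and in 8.30%, and GAGGAAGT, an ETS pattern of the PU.1 type, in 2 of 8 (Ctss and Ctsc) and in 3.20%. Ctsd held a further E-box 245 bases before the start, without the longer motif, that is not shown. Ctsa held the longer motif again, beginning 4 bases after the start, which is also not shown. For each member with an E-box before the start, 1 window is given below, with the motif in capitals. Ctsa and Ctsd are shown with the longer motif, and Ctsf and Ctsl with the E-box alone.
Ctsa: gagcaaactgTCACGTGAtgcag
Ctsd: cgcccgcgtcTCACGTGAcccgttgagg
Ctsf: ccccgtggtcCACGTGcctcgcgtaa
Ctsl: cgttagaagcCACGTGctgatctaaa
The Ctsa window is chr2:164833750-164833772 on the plus strand, 13 bases before the start, that of Ctsd chr7:142387909-142387936 on the minus strand, 99 bases before, that of Ctsf chr19:4855076-4855101 on the plus strand, 79 bases before, and that of Ctsl chr13:64370741-64370766 on the minus strand, 236 bases before. None of these 4 members was called between CML stem cells and normal HSCs, and in KLS- progenitors Ctsa rose and Ctsf fell while Ctsd and Ctsl did not pass. A match of letters is a description and not a site of binding.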

How the data were processed

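RNA of 6 sorted populations (8 libraries) was prepared by the authors with an oligo-dT primed ultra-low-input kit, sequenced as paired reads of 100 bases and mapped to mm9 (NCBI Build 37) with a commercial service. The authors deposited RPKM values for each gene in each library, which are scaled by the depth of a library and the length of a transcript, not by library composition. The annotation and the counting rule are not given in the sources used here. RPKM are not counts, so moderated linear models (limma 3.58.1 under R 4.3.3, with eBayes set to follow intensity, two-sided) were run on log2(RPKM + 1), a scale that understates changes of low genes, over the 12561 of 20207 genes that summed to more than 1 RPKM, and p-values were adjusted over all of them (Benjamini-Hochberg, threshold 0.05). Fits were CML against normal stem libraries (3 against 3), LT-CML against LT-HSC and the difference of disease effects (1 mean for each of 6 populations, 2 residual degrees of freedom), and KLS- against stem and ST against LT cells (disease and stage, all 8 libraries). Ratios are of mean RPKM. Depth was estimated from the steps of low RPKM values: 69.3% of 4324 low genes lay on whole multiples of 1 step within a tolerance of 2%, the exon lengths of GENCODE M1 set the scale, and 93.2% of gene names matched 1 locus. Of 2763 genes with a step and a length, 972 lay at the most frequent scale, which was used. Reads of each member were estimated with the length of 1 transcript, so they are approximate. Counting errors cover sampling of reads only.

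The members and all gene lists were chosen with earlier results of these data known. All 10 members are named, and of each list the called genes with the largest differences, up to 6, or those with the highest mean where none was called, except items that are not reported here. Alternatives covered the pseudocount (0.1), the minimum, quantile and upper-quartile scaling, the trend, covariates, samples and each library left out in turn. Leaving out LT-HSC replicate 2 and LT-CML replicate 2 together was chosen after seeing the data. The fits other than the difference of disease effects were tested on simulated data, with 200 genes changed by 2 on the log2 scale. Of these, 94.5 to 99.5% were recovered. Of the calls, 3.4 to 7.48% fell on unchanged genes, most in the KLS- comparison. The simulated libraries had no differences of granule transcripts or age. Python 3.11.15 with Biopython 1.88 was used for sequences. Promoters came from RefSeq (GRCm38.p6) and were not placed on mm9.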

Additional observations from a re-analysis of the deposited data

How the results depend on the processing

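Of 632 values of single members under the alternatives, 573 kept direction and side of the threshold, 39 lost a call, 10 gained it and 10 changed sign, the last for members with no call in the deposited scaling: Ctsb in stem cells without LT-HSC replicate 2 (-0.0427), without ST-CML (-0.0158) and without both LT replicates 2 (-0.0190), against 0.12 without ST-HSC and a highest value of 0.13 with upper-quartile scaling; Ctss in stem cells without LT-HSC replicate 1 (-0.38) and without ST-CML (-0.56), against 0.53 without ST-HSC; in LT cells Ctsb (-0.0296 to 0.16), Ctsl (-0.0524 to 0.44) and Ctss (-0.49 to 0.32, above 0 without LT-HSC replicate 2 or LT-CML replicate 1) with 1 library left out; and Ctsd in KLS- cells with quantile normalization (-0.23). Without a minimum on RPKM, limma called 173 genes in stem cells (1 member), 0 in LT cells (0 members, with 1881 genes at an unadjusted p under 0.05), 127 in the ST comparison (0 members) and 242 for the difference of disease effects. Stem cells gave 294 genes as reported, 543 with cell type as a covariate, 776 with all 8 libraries, 115 to 217 with 1 library left out (1 to 2 members) and 38 with both LT replicates 2 left out, which leaves 2 residual degrees of freedom (0 members by limma, 4 at an unadjusted p under 0.05). LT cells gave 217 genes, 6 to 74 with 1 library left out (0 to 1 members), and 1 member with upper-quartile scaling. KLS- cells gave 3178 to 6338 genes (5 to 9 members) with 1 library left out, 566 in normal libraries alone (2 members), 1497 in CML libraries alone (3 members) and 4 members with no disease covariate. The ST comparison gave 110 to 718 genes (0 to 1 members) with 1 library left out, 287 with no disease covariate, and 2 members with quantile or upper-quartile scaling. The difference of disease effects gave 3 genes, 0 with a pseudocount of 0.1, quantile, upper-quartile or 1 LT library left out (343 to 528 genes at an unadjusted p under 0.05), 1 without the trend and 9 with 1 interaction term, and no member under any of these by limma. Over all genes, limma called 5012 in KLS- cells with no disease covariate and 147 in LT cells with upper-quartile scaling. In the ST comparison it called 790 with quantile normalization and 726 with upper-quartile scaling. The causes of these changes were not tested. For that difference, fits without an ST or KLS- library were not run, since they leave a population with no library. A fit with 1 sample left in an LT population assumes that it varies like the others. No paired analysis was possible because the normal LT libraries carry no replicate numbers in their labels. Depth limited Ctsf in KLS- cells most.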
